A study of Mus musculus with 2 samples.

Results

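Syt1, Otop1, Snap25, Nefl and Nrgn, 5 of the 21888 genes listed in the count tables, were followed cell by cell in gustducin-positive taste cells of the mouse tongue. They were grouped because they are known from neurons and from type III (sour-sensing) taste cells. They were also chosen by their measured levels and cells in these same libraries, so their levels and their restriction to 1 papilla are given as descriptions, with no test. Single cells came from 2 libraries, 1 from the circumvallate papilla (CV), at the back of the tongue, and 1 from fungiform papillae (FP), at its front. Both came from adult α-gustducin-GFP mice on the C57BL/6J background, and every cell in both had been sorted for green fluorescence from a reporter tied to α-gustducin, a G protein subunit of taste transduction whose gene is Gnat3. Neither cells without the reporter nor mice without the transgene were among the groups, and the number of animals behind each library was not stated in the sources used here. A cell was kept if it had more than 500 genes and a Gnat3 level over 0.9 as ln(1 + counts per 10000), which left 32 of 61 CV barcodes and 21 of 29 FP barcodes, 53 of 90 in all. A gene was called on in a cell at 50 CPM (counts of the gene per 1000000 counts of the cell) or more. A gene with no row in a library's table was counted as 0 there. All 5 genes had a row for CV, whereas for FP 2 of them did, Snap25 and Nefl. With 1 library per papilla no test of a difference between papillae was possible, and the intervals below (95%) cover counting error only.

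Taste buds hold cells of several classes. Type II cells detect sweet, umami or bitter compounds through G protein-coupled receptors, of the Tas1r and Tas2r families, and release their transmitter through channels without classical synapses. Type III cells respond to acid and form synapses with nerve fibres, for which they use the vesicle fusion proteins also found in neurons. Among the 5 genes, Syt1 encodes synaptotagmin 1, the calcium sensor of vesicle release, and Snap25 a SNARE protein that drives vesicle fusion. Otop1 encodes the proton channel of sour taste. Nefl encodes the light neurofilament subunit, and Nrgn encodes neurogranin, a calmodulin-binding protein of neurons.

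Depth differed widely between cells. Kept CV cells had 32726 to 3447628 counts (median 543963) and a median of 5523.5 genes, and kept FP cells had 193718 to 3190340 counts (median 1141644) and a median of 6480 genes. The median mitochondrial share was 12.5% in CV and 11.1% in FP, with highest values of 88.6% in CV and 68.03% in FP. The 2 libraries shared 0 barcodes. The kept cells carried type II markers in both papillae, with 4372 CPM of Gnat3 and 1783 CPM of the transduction channel gene Trpm5 in the pooled CV cells, and 5223 and 1952 CPM in the pooled FP cells.

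At 50 CPM, 4 of the 5 genes were on in CV cells and none was on in any FP cell. Nefl was on in 8 of 32 CV cells (25%, Clopper-Pearson interval 11.5 to 43.4), Nrgn in 5 (15.6%, 5.28 to 32.8), Syt1 in 4 (12.5%, 3.51 to 28.99), Otop1 in 2 (6.25%, 0.766 to 20.8) and Snap25 in 0. For each gene 0 of 21 FP cells were on, so that a share of 14.3% (3 cells) is the limit that a count of 0 allows and the Clopper-Pearson upper bound is 16.1%. Being on in no FP cell was found for 1.69% of all genes on in 8 or more CV cells, for 3.91% of those on in 5 or more, for 5.6% of those on in 4 or more and for 13.2% of those on in 2 or more. Syt1 had no cell near the limit, whereas Nefl, Nrgn, Otop1 and Snap25 each had 1 or 2 cells closer to it, given below.

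**Figure D1:**
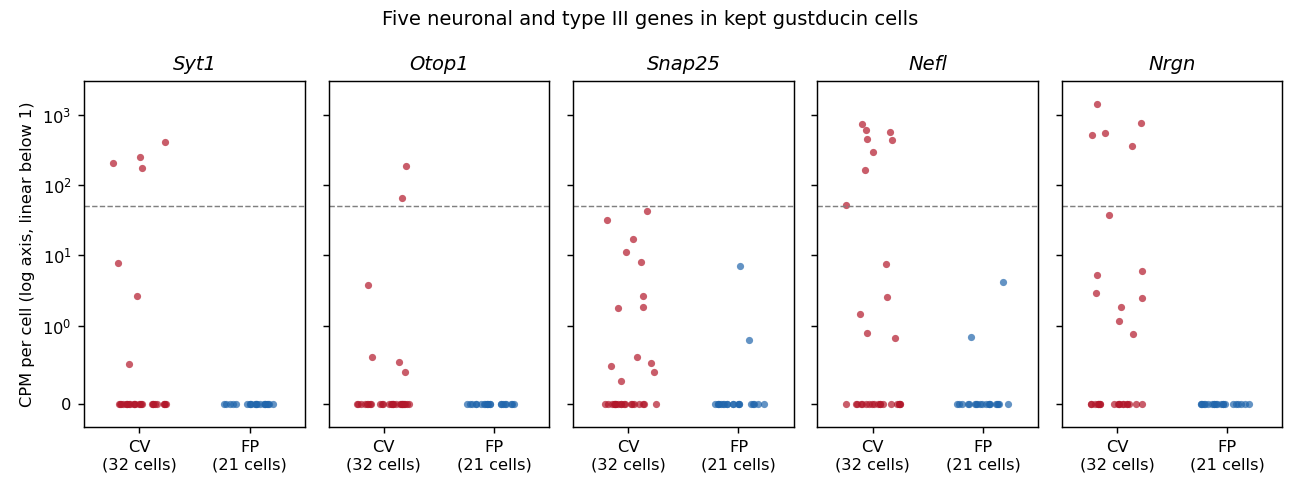
CPM of each of the 5 genes in every kept cell, 32 CV cells on the left and 21 FP cells on the right of each panel, on an axis that is logarithmic above 1 CPM and linear below it. The dashed line marks 50 CPM, above which lie 4, 2, 0, 8 and 5 CV cells for Syt1, Otop1, Snap25, Nefl and Nrgn, and no FP cell.

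The CV cells with a gene on are named by letters in order of falling total counts, from cell a (3447628 counts) to cell l (330276 counts). Nefl had 740 CPM in cell b, 602 in cell e, 560 in cell f, 448 in cell d, 441 in cell g, 290 in cell c, 161 in cell i and 52.4 in cell k. Of the other 24 CV cells the highest had 7.47 CPM, and 19 CV cells had no count. In FP, 19 of 21 cells had no count and the highest had 4.19 CPM, from 2 counts. Cell k thus stood just inside the limit on 36 counts, and no cell lay between 7.47 and 52.4 CPM. Pooled over kept cells, Nefl had 229 CPM in CV (Poisson interval 224 to 235) and 0.132 CPM in FP, from 3 counts, a ratio of 1732 (593 to 8403).

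Nrgn had 1403 CPM in cell i, 755 in cell b, 555 in cell e, 520 in cell c and 364 in cell d. The next CV cell, g, had 37.6 CPM, and all remaining CV cells had less than that. No FP cell had a count. The 5 cells on were therefore at least 364 CPM and stood clear of the limit, with cell g just outside it. The pooled level was 246 CPM in CV (240 to 252) and 0 in FP. With FP set at a floor of 3 counts over all its kept cells, CV was 1856-fold higher. The interval of the ratio had a lower bound of 1509. Nrgn had no row for FP, so both values hold only if a missing row means a count of 0.

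Syt1 had 405 CPM in cell g, 248 in cell l, 203 in cell h and 176 in cell b. The next highest CV cell, f, had 7.80 CPM, and 25 of 32 CV cells and all 21 FP cells had no count. Syt1 was thus a gene of few cells, and cell g held 45.5% of its counts. The pooled level was 56.1 CPM in CV (53.4 to 58.8) and 0 in FP. By the same floor CV was 423-fold higher, and the interval of the ratio had a lower bound of 344. Syt1 had no row for FP either, so these values also take the missing row as 0.

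Otop1 had 184 CPM in cell a and 65.8 in cell j, and no other CV cell had more than 3.77 CPM. No FP cell had a count. Cell a held 88.8% of the Otop1 counts. The pooled level of 24.1 CPM in CV (22.4 to 25.98), against 0 in FP, therefore rested mostly on 1 cell. By the same floor CV was 182-fold higher, and the interval of the ratio had a lower bound of 148. Otop1 had no row for FP, so these values again take the missing row as 0. The log2 ratio of CV over FP, with 10 CPM added to both, was 1.77 with cell a and 0.39 without it. Cell a was the deepest kept cell and alone among the 12 lettered cells had the type I marker genes Entpd2 (149.7 CPM) and Oxtr (86.4 CPM) and the stem cell gene Lgr5 (117 CPM) on. Whether its barcode held more than 1 cell was not tested. The progenitor genes Sox2 and Hes6 were on in both Otop1 cells, and also in 3 and 5 Nefl cells.

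Snap25 reached 50 CPM in no kept cell when all counts were used, and in 2 CV cells when mitochondrial and ribosomal RNA counts were left out of the total. It had at least 1 count in 13 of 32 CV cells, where the highest levels were 42.4 CPM (16 counts), 31.9 CPM (13 counts) and 16.99 CPM, and in 2 of 21 FP cells, at 6.97 and 0.813 CPM. The 16.99 CPM were in cell e, while the 2 cells above it had no other of the 5 genes on. Those 2 cells were low in Gnat3, at 405 and 378 CPM, against a median of 4120 CPM over kept CV cells. Their mitochondrial shares were high, at 38.4% and 52.7%, against a median of 12.5%. Krt8, an epithelial keratin, was low in them, at 26.5 and 2.46 CPM against a median of 989 CPM. Damage to these cells was not tested. The pooled Snap25 level was 3.28 CPM in CV (2.66 to 4.01) and 0.132 CPM in FP, a ratio of 24.8 (8.24 to 122) at levels of few counts.

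**Figure D2:**
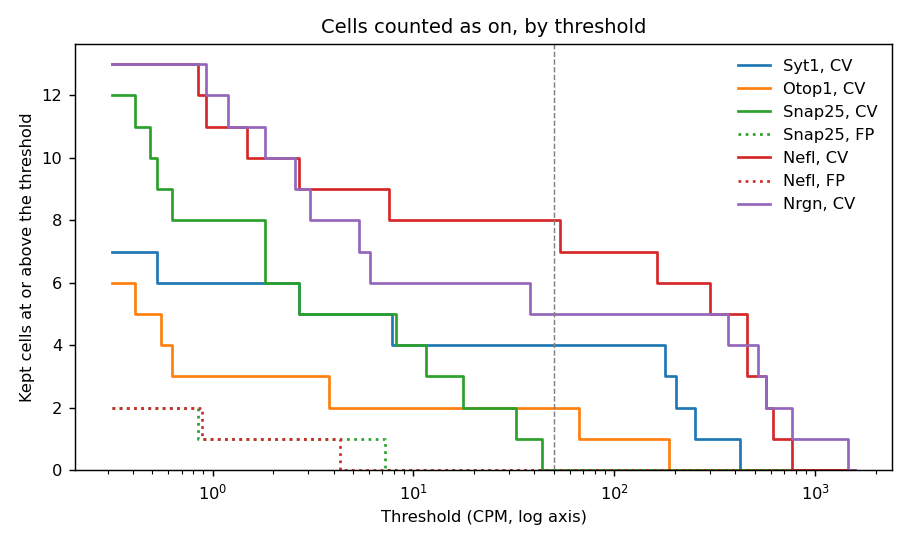
Number of kept cells at or above each level of CPM (logarithmic axis), by gene, in CV (solid) and FP (dotted, for the 2 genes with counts there); the dashed line marks 50 CPM. The CV curves of Nefl, Nrgn, Syt1 and Otop1 are nearly flat around the line, at 8, 5, 4 and 2 cells, and Snap25 ends below it.

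The promoters of 3 of the 5 genes were in the RefSeq-based promoter table for GRCm38.p6, and they are shown as the regulatory sequence held for the members. Each window is the 250 bases before the RefSeq start, read on the gene's strand. Nrgn lies on chromosome 9 (37544492 to 37552904, minus strand), Syt1 on chromosome 10 (108497650 to 109010982, minus strand) and Otop1 on chromosome 5 (38275972 to 38304217, plus strand), while Nefl lies on chromosome 14 (68083863 to 68089095, plus strand) and Snap25 on chromosome 2 (136713453 to 136782428, plus strand), by the GENCODE M21 annotation. The windows are chr9:37552746-37552995 for Nrgn, chr10:109010976-109011225 for Syt1 (the first of 2 annotated starts) and chr5:38277154-38277403 for Otop1. RefSeq and GENCODE place the starts differently. The Otop1 window lies wholly inside the GENCODE gene, outside its UTRs, and 159 bases of the Nrgn window and 7 of the Syt1 window lie in a GENCODE UTR. For Nrgn the 91 bases before the GENCODE start, chr9:37552905-37552995, are therefore printed. Capitals mark matches to the CCAAT box (the letters CCAAT) and to the GC box (the letters GGGCGG), or to their reverse complements.
Nrgn: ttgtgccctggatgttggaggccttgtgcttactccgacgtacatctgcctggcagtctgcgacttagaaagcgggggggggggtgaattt
Syt1: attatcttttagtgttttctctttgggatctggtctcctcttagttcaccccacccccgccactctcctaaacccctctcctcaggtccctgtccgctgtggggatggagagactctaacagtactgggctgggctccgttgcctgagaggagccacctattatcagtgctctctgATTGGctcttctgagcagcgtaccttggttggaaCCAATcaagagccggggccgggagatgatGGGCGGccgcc
Otop1: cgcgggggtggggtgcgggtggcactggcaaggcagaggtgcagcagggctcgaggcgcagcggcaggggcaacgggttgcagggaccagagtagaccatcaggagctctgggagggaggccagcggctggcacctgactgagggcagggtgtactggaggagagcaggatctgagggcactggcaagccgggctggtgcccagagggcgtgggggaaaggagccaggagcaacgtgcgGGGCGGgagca
The CCAAT box was found in 1 place for Nrgn, 2 for Syt1 and 0 for Otop1, and the GC box in 1 place for each, searched over the 250 bases on both strands with no overlap between motifs. Both Nrgn matches lie outside the printed bases. Of 32851 promoter windows of this length, 33.8% hold the CCAAT box and 32.7% the GC box. The TATA box (TATAAA, in 12.4% of windows) and the octamer (ATGCAAAT, in 1.6% of windows), the kind of motif that POU factors such as the type II regulator Pou2f3 are known to bind, were found in none of the 3. The GC content was 58.4% for Nrgn, 56.4% for Syt1 and 70.0% for Otop1, against a median of 52.4% over all windows. These matches describe the letters only.

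With 10 CPM added to both sides, which makes the change of a low gene look smaller, the log2 ratio of CV over FP was 4.68 for Nrgn, 4.56 for Nefl, 2.72 for Syt1, 1.77 for Otop1 and 0.39 for Snap25. Among the 10918 genes that reached 10 CPM in CV or FP, 21% were higher in CV by 2-fold or more and 17% were higher in FP by as much, with a median log2 ratio of 0.05. The 4 members in that set (Snap25 was below 10 CPM) were all higher in CV, a direction for which the genes had been picked.

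Whether the genes were on in the same cells was asked next. In CV, 12 of 32 cells had at least 1 of the 5 genes on (37.5%, 21.1 to 56.3), and 6 of these had 2 or more, 5 cells with 2 genes and 1 cell with 3. Most of the overlap lay between Nefl and Nrgn, and cell g had Syt1 and Nefl on. All 5 Nrgn cells (b, c, d, e and i) were Nefl cells, 100% of the Nrgn cells and 62.5% of the Nefl cells, where independence of the 2 genes over 32 cells would give 1.25 cells. The Nefl cells without Nrgn on were f, g and k. Among the 774 genes on in exactly 5 CV cells, 2.33% had all 5 cells within the Nefl cells.

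Syt1 followed another pattern. It shared cells b and g with Nefl, 50% of the Syt1 cells and 25% of the Nefl cells, and shared cell b with Nrgn, while in cells h and l it was the only one of the genes on. An overlap with the Nefl cells of that size or more was found for 60% of the 1034 genes on in exactly 4 CV cells. Both Otop1 cells, a and j, had none of the other 4 genes on. That was found, relative to the Nefl cells, for 35.1% of the 1872 genes on in exactly 2 CV cells. Cell b was the only cell with Syt1, Nefl and Nrgn together, at 176, 740 and 755 CPM.

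Depth moved with these calls. The 12 cells with a gene on had 330276 to 3447628 counts (median 1892622), against 32726 to 1350869 (median 195610) in the 20 CV cells with none on. All 5 Nrgn cells had over 1000000 counts, and 34.5% of the genes on in exactly 5 CV cells had all of them at that depth. Among cells with 1000000 counts or more, 10 of 14 CV cells and 0 of 13 FP cells had at least 1 gene on. When each cell was thinned to 71770 counts, with 6 shallower cells left out, 11 of 26 CV cells and 0 of 21 FP cells had at least 1 gene on, and 6 CV cells had 2 or more. The part of depth in the difference between CV cells was not tested.

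**Figure D3:**
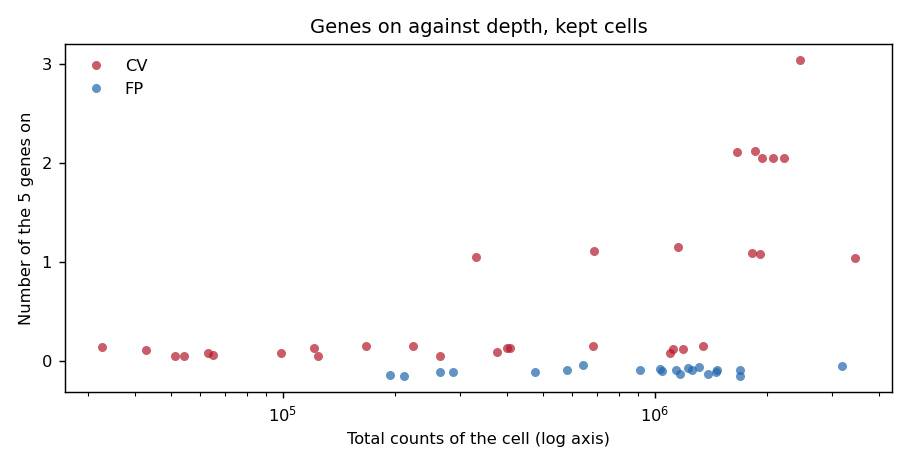
Number of the 5 genes on in each kept cell against its total counts (logarithmic axis), CV in red and FP in blue, with small vertical offsets to separate points. The 6 CV cells with 2 or 3 genes on all have over 1000000 counts, and the FP cells, 13 of them at that depth, lie at 0.

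Most cells with a gene on also had taste receptors on. A bitter receptor (Tas2r) was on in 11 of the 12 cells, the exception being cell l, which had no taste receptor on, 2403 genes and 33.5% mitochondrial counts. Of the 20 CV cells with none of the 5 genes on, 17 had a Tas2r on. A Tas1r gene, for sweet or umami receptors, was on in 7 of the 12 cells and in 8 of the 20. The number of Tas2r genes on was 16 in cell d, 11 in each of cells b, c, f, g and i, 8 in cells e and k, 7 in cells a and h, and 4 in cell j. Tas2r genes are close relatives of each other, and the counting could split or share reads between them, so that the level of a single one is uncertain.

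Tas2r105, Tas2r107, Tas2r109, Tas2r117 and Tas2r123 were on in all 5 Nrgn cells, out of 19 Tas2r genes on in any. Levels in these cells ran over 199 to 841 CPM for Tas2r105, 118 to 510 for Tas2r107, 83.8 to 289 for Tas2r109, 101 to 704 for Tas2r117 and 62.9 to 169 for Tas2r123. In the 9 other CV cells with 1000000 counts or more, Tas2r105 and Tas2r107 were on in 6 each, Tas2r109 and Tas2r117 in 3 each, and Tas2r123 in 0. Over all kept CV cells, Tas2r105 was on in 14, Tas2r107 in 17, Tas2r109 in 10 and Tas2r117 in 11. Tas2r123 was on in 6 kept CV cells, the 5 Nrgn cells and the Nefl cell k (729 CPM), and in no FP cell. Tas2r103 and Tas2r144 were each on in 3 CV cells, all of them Nrgn cells. The share of all genes on in all 5 Nrgn cells, or in Nrgn cells alone, was not counted. The 5 Nrgn cells had 8 to 16 Tas2r genes on (median 11), against 4 to 13 (median 7) in those 9. The Nrgn cells were deeper, with 1659573 to 2459319 counts (median 2081456), against 1100195 to 3447628 (median 1350869) in the 9, and the part of depth in these numbers was not tested.

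Over all 8 Nefl cells, Tas2r109 and Tas2r117 were on in every one. Tas2r117 had 56.8 CPM, on 39 counts, in cell k. Tas1r3, the subunit shared by sweet and umami receptors, was on in 2 Nefl cells, at 574 CPM in cell f and 192 CPM in cell k, and in 0 of the 5 Nrgn cells. Tas1r1, the umami subunit, was on in the Nefl cells b, d, g and k, at 74.8, 156, 173 and 467 CPM. Tas1r2, the sweet subunit, was on in no Nefl cell and no Syt1 cell. Over all kept CV cells Tas1r2 was on in 4 and Tas1r3 in 7. The share of all genes with as little overlap was not counted.

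The 4 Syt1 cells shared no Tas2r, since cell l had none, and cells b, g and h had Tas2r106 in common at 235, 144 and 289 CPM. Tas2r106 was on in 20 of all kept CV cells, more than any other Tas2r. Tas1r3 was on in none of the 4 Syt1 cells, and in 7 of all kept CV cells. The Otop1 cells a and j shared some receptors. Both had Tas1r2 on (64.1 and 127 CPM), and both had Tas2r104, Tas2r106, Tas2r118 and Tas2r126. Over all kept CV cells, Tas1r2 was on in 4, Tas2r104 in 14 and Tas2r118 in 15. Cell a also had Tas2r105, Tas2r135 and Tas2r138 on, which cell j did not. Tas2r126 was on in no other kept cell, at 72.8 CPM in cell a and 202 CPM in cell j, with at most 33.6 CPM in any other CV cell. The share of all genes on in cells a and j alone was not counted. Tas1r3 was on in cell a (187 CPM) and not in cell j, and Gnat3 was 2836 CPM in cell a and 459.5 CPM in cell j, which was below the median of CV cells in both.

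**Figure D4:**
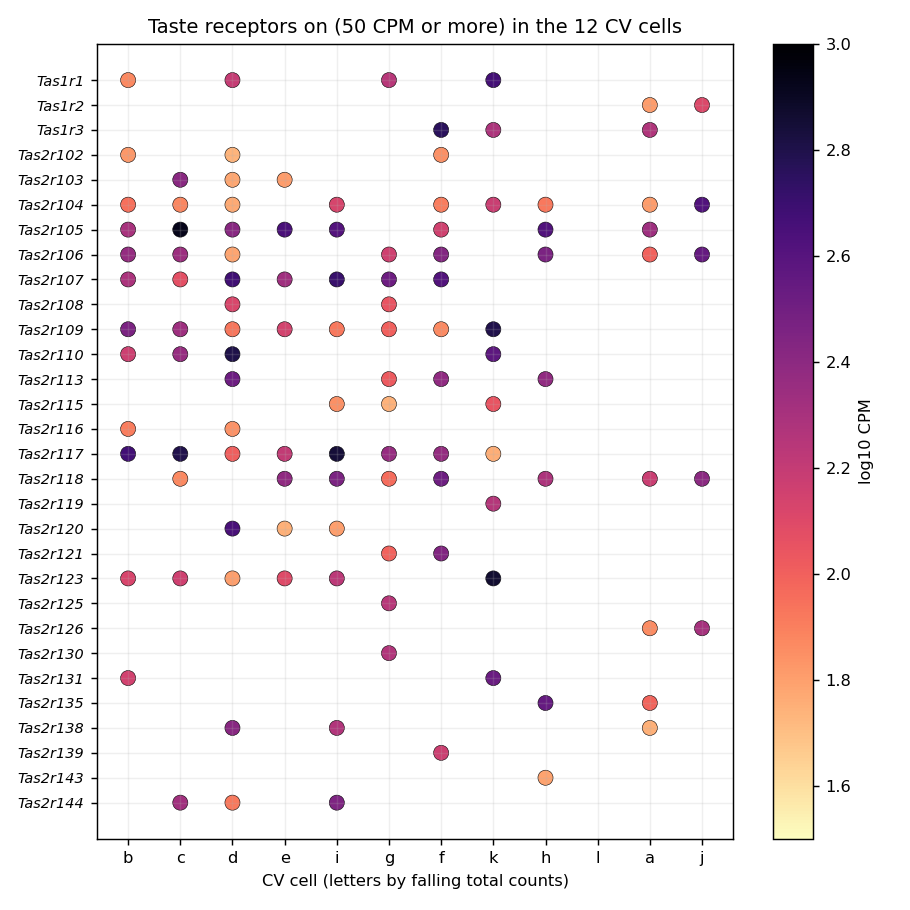
Taste receptor genes on in each of the 12 CV cells with at least 1 of the 5 genes on, with log10 CPM as colour; cells are ordered as Nrgn and Nefl cells (b, c, d, e, i), Nefl cells without Nrgn (g, f, k), Syt1 cells (h, l) and Otop1 cells (a, j). Tas2r105, Tas2r107, Tas2r109, Tas2r117 and Tas2r123 fill the 5 Nrgn columns, Tas2r126 appears in a and j alone, and column l is empty.

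Genes with a pattern most like each member were ranked by the Jaccard index, the number of cells with both genes on over the number with either on, across 8244 genes and all 53 kept cells. The cells share their libraries and differ in depth, so the index is a description. None of the 8244 genes was on in exactly the cells of Syt1, Nefl or Nrgn. Otop1 and Snap25, each on in fewer than 3 kept cells, were not ranked. For Nrgn the highest index was 0.833, with the 5 Nrgn cells and 1 other CV cell, for Olfm3 (an olfactomedin), Fyb (an adaptor protein known from T cells and platelets), Prkcd (protein kinase C delta) and Acoxl (an acyl-CoA oxidase-like protein), and Tnn and Tas2r123 tied with them. Fyb had 784 to 2172 CPM in the 5 Nrgn cells and at most 345 CPM in the other kept cells, that value in cell k. Olfm3 had 225 to 651 CPM in the Nrgn cells and at most 126 CPM elsewhere. An index of 0.5 or more was reached by 78 genes.

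For Nefl the nearest genes were Upp2 (uridine phosphorylase 2, index 0.778), and Tenm2 (a teneurin), Fyb and Tnn (tenascin N) at 0.75, tied with Tas2r123, with 86 genes at 0.5 or more. Each of these was on in 6 to 8 CV cells and in no FP cell. Upp2 was on in 7 of the 8 Nefl cells and had 42.8 CPM in cell i. For Syt1 5 genes reached 0.5, and the nearest were Slc25a12 (a mitochondrial aspartate-glutamate carrier, 0.75), Orc2 (an origin recognition subunit, 0.667), Med11 (a Mediator subunit, 0.6) and Setd5 (a SET domain protein, 0.571). Orc2 and Setd5 were on in all 4 Syt1 cells, and in FP they were on in 2 and 3 cells.

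Chat, the enzyme of acetylcholine synthesis, was looked at because of its known place in nerve terminals, after its values had been seen. It was on in all 5 Nrgn cells, at 357 CPM in cell c, 362 in cell d, 286 in cell i, 156 in cell e and 77.3 in cell b. It was on in 3 of the 9 other CV cells with 1000000 counts or more and had no count in FP cells. Over all kept CV cells Chat was on in 10, and its highest level, 2027 CPM, was in a cell with none of the 5 genes on. The share of all genes that were on in all 5 Nrgn cells was not counted. The Nefl cells f, g and k had 0, 0.537 and 0 CPM, so that the Nefl cells with Chat on were the Nrgn cells.

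Type II genes were on in these cells too. In the 5 Nrgn cells Gnat3 had 2567 to 5945 CPM and Trpm5 1164 to 2374 CPM, against 459.5 to 7407 and 1172 to 2740 CPM in the 9 other CV cells with 1000000 counts or more, ranges that overlap. Plcb2, the phospholipase of taste transduction, had 520 to 1873 CPM in the Nrgn cells and 1217 to 5227 CPM in the 9 others. Krt8, an epithelial keratin, had 815 to 1231 CPM in the Nrgn cells and 1282 to 6262 CPM in the 9 others, and the 2 sets did not overlap. Of 10918 genes, 0.128% had all Nrgn cells below the 9 others and 0.705% all of them above.

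**Figure D5:**
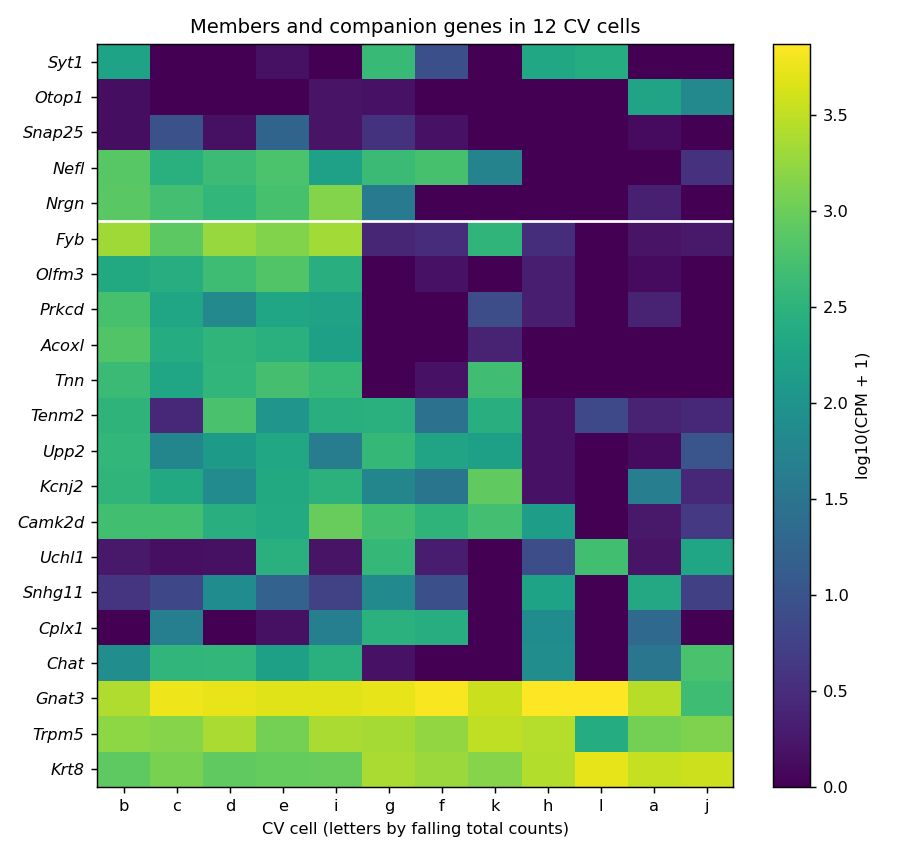
Colour gives log10(CPM + 1) of the 5 genes (above the white line) and of companion genes in the 12 CV cells with at least 1 of the 5 genes on, with cells in the same order as in the receptor map. Fyb, Olfm3, Prkcd and Acoxl are high in the 5 Nrgn cells (b, c, d, e, i), and the Otop1 cells a and j are dark for Nefl, Nrgn and Tnn.

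Type III cells were looked for with a list of 21 markers. Of these, 9 had no count in any kept cell, among them Pkd2l1 (a channel subunit that marks sour cells), Car4 (carbonic anhydrase 4), Ddc (the enzyme that completes serotonin synthesis), Chgb (chromogranin B), Slc18a2 (a vesicular monoamine transporter) and Gad1 (the GABA synthesis enzyme). The genes named here had no row for CV or for FP, as was also so for Calhm3 of the type II list. A missing row could not be told apart from absence of the RNA. Of the 5 other markers with at least 10 CPM, 1 (Kcnj2) had a ratio of 2-fold or more in favour of CV and 0 in favour of FP, with a median log2 ratio of 0.41 against 0.05 over all genes. Kcnj2, the inward rectifier potassium channel known from sour cells, was on in 9 CV and 6 FP cells, and 7 of the 9 were Nefl cells, all 5 Nrgn cells among them. How many other genes overlap the Nefl cells to this extent was not counted, and those cells were deep, with a median of 1932138.5 counts against 297739 in the other CV cells. The adhesion gene Ncam1 was on in cell a (60.04 CPM) and in no other lettered cell. Pkd1l3, the partner of Pkd2l1, was on in 1 CV cell, which was none of the 12. The summed level of the list without its members Snap25 and Otop1 was 40.6 to 1153 CPM (median 349) in the 12 cells, 0 to 5826 CPM (median 80.9) in the other 20 CV cells, 64.6 to 497 CPM (median 413) in the 4 of these with 1000000 counts or more and 7.58 to 517 CPM (median 191) in FP cells.

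Of 20 further neuronal markers, 4 had at least 10 CPM, and the ratio was 2-fold or more for 2 of them in favour of CV and for 1 in favour of FP. Uchl1 (a neuronal ubiquitin hydrolase) had pooled levels of 95.9 CPM in CV against 0.221 CPM in FP. It was on in 7 CV cells, 4 of them among the 12 (e, g, j and l). Snhg11, a long noncoding RNA of neurons, reached 98.5 CPM in CV against 1.46 CPM in FP. Its on cells were likewise 7, all CV, 4 among the 12 (a, d, g and h). Tubb3, a neuronal tubulin, was lower in CV, at 22.8 CPM against 137 CPM in FP. The other neurofilament subunits did not accompany Nefl: Nefm had 0.0677 CPM in CV and 0 in FP, and Nefh was on in 1 CV cell, which was not a Nefl cell. Growth cone and neuronal markers Gap43, Stmn2, Prph and P2rx2 had no row for CV or for FP and were counted as 0. The summed level of the 20 markers was 7.23 to 792 CPM (median 146) in the 12 cells, 156 to 603 CPM (median 381) in the 4 deep CV cells with none of the 5 genes on, and 1.63 to 964 CPM (median 27.2) in FP cells.

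The vesicle release machinery around Syt1 and Snap25 was present in both papillae. Of 21 further genes of the list with at least 10 CPM, 1 was higher by 2-fold or more in CV, 4 were so in FP and 16 in neither, with a median log2 ratio of -0.13. Vamp2, the vesicle SNARE of synapses, was on in 16 CV and 18 FP cells, at 350 and 763 CPM. Nsf, the ATPase that takes SNARE complexes apart, was on in 13 CV and 8 FP cells. Sv2a, a synaptic vesicle protein, was on in 1 CV and 8 FP cells, at 7.72 and 144 CPM. The gene higher in CV was Cplx1, a complexin that clamps vesicle fusion, with 57.9 CPM in CV and 0 in FP. It was on in cells f (259 CPM), g (296 CPM) and h (76.2 CPM) and in 1 CV cell outside the 12. Vamp8, a SNARE of exocytosis in epithelial and secretory cells, was on in 10 CV cells, all of them among the 12, and in 10 FP cells. Snap23, the close relative of Snap25 in non-neuronal cells, was on in 4 CV cells, all Nefl cells (b, d, g and i), and in 3 FP cells. For Vamp8 and Snap23, the share of all genes with such an overlap was not counted. The 12 cells were also deeper, with a median of 1892622 counts against 195610 in the other CV cells.

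Among calmodulin partners and calcium kinases, the group to which Nrgn belongs, 2 of 8 further genes were higher by 2-fold or more in CV and 2 were so in FP, with a median log2 ratio of -0.24. Camk2d, a calmodulin-dependent kinase, stood at 279 CPM in CV against 38.6 CPM in FP. Its on cells were 13 in CV, including all 8 Nefl cells at 232 to 942 CPM, and 3 in FP. Camk4, a nuclear kinase of the same family, was on in 19 CV cells, 7 of the 8 Nefl cells among them, and in 6 FP cells. For both kinases the share of all genes with as much overlap was not counted, and the Nefl cells were deeper than most CV cells. Camk2b was lower in CV, on in 8 CV and 14 FP cells.

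Markers of other cell classes were summed per cell. The summed level of 4 Schwann cell markers was 0 to 484 CPM (median 144) in the 12 cells, 0 to 215 CPM (median 9.13) in the other 20 CV cells, 1.48 to 215 CPM (median 94.5) in the 4 deep ones among these and 0 to 988 CPM (median 102) in FP cells; in the 12 cells Erbb3, a receptor that epithelia also use, was the only one on, and Sox10 and Foxd3 had no count. Fibroblast and vessel markers had 0 to 312 CPM (median 0.528) in the 12 cells and at most 3.77 CPM in the other 20, with the endothelial gene Pecam1 on in the Nrgn cells b and c at 148 and 311 CPM, and Cdh5 and Kdr at no count. Immune markers had 0 to 180 CPM (median 0.823), from Lyz2 in cell j, and Ptprc had no count. Keratinocyte markers had 0 to 642 CPM (median 14.9) in the 12 cells and 98.5 to 1644 CPM (median 348) in FP cells. Muscle markers stayed at or below 0.961 CPM in the 12 cells. Sox10, Foxd3, Cdh5 and Kdr had no row for CV or for FP and were counted as 0, and Ptprc had no row for CV. The part of RNA from other cells in these results was not tested beyond these levels.

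The 5 genes were also looked at in the barcodes that were not kept. These barcodes do not measure background, since a CV barcode among them had 4088415 counts, 9949 genes and 1369 CPM of Trpm5. In the 8 FP barcodes under the Gnat3 limit, which had 22.8 to 62489 CPM of the keratin gene Krt13 and a median of 1018134 counts, Syt1, Otop1, Nefl and Nrgn had no count and Snap25 had 0.245 CPM in 1 barcode. In the 29 CV barcodes not kept, Otop1 had no count, Nrgn reached 3.66 CPM, Snap25 0.245 CPM, and Syt1 was on in 1 barcode on 3 counts. Nefl was on in 2 of them.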

How the data were processed

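The 2 deposited tables, 1 each for CV and FP, hold counts per gene and barcode, whole numbers that were not normalized, as their values show. The submitters' processing notes name cutadapt 2.10, Bowtie2 2.3.4.1, Seurat 2.3.4 and the build mm10. Per the series design, the authors aligned reads to reference RNA, chose barcodes with DropletUtils and applied a distribution-based error correction to the counts. The sources used here do not say if reads with the same molecular barcode were merged, so counts may hold PCR copies, and intervals and floors cover counting error only. The authors' Gnat3 limit was read on the natural log scale, and their mitochondrial and ribosomal RNA limits, which can be read in several ways, were not applied. Doublets were not called. Genes with no row in a table were taken as 0.

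CPM were counts per 1000000 of a cell, or of the pooled kept cells. Poisson, conditional binomial and Clopper-Pearson intervals (95%) were computed with scipy 1.17.1 in Python 3.11.15. Log2 ratios are CV over FP of CPM + 10, and the other ratios and folds are of CPM, or of the floor where FP had no count. The script steps were tested on simulated data. The members and lists were chosen with earlier results of these data known. The naming rule took the 5 genes, Gnat3 and the taste receptors, the 4 genes of highest Jaccard index for each member on in 3 or more cells, and from each list up to 6 genes on in most kept cells (12 for type III and release genes) or with no count. Cplx1, Snap23, Nefm and Chat were named after their values were seen. A few genes within the rule are left out of the text; list counts, medians and sums still hold them. Pooled levels depend on the deep cells, which carry more of the counts. Alternatives were other cell filters, limits for on, pseudocounts, thinning to a fixed number of counts, the mean of cells and leaving out the highest cell.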

Additional observations from a re-analysis of the deposited data

Results flagged for a closer look

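Nefl was found above the limit in CV barcodes that the comparisons did not use. It had 2037 CPM (328 counts) in a barcode with 93.2% mitochondrial counts and no Gnat3 count, and 1474 CPM (197 counts) in a barcode with 90.3% mitochondrial counts, 487 genes and 22.4 CPM of Gnat3. Both levels are above the highest in a kept cell, 740 CPM, while no FP barcode, kept or not, exceeded 4.19 CPM. The part of damaged cells or free RNA in these 2 values was not tested.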

How the results depend on the processing

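Of 66 values recomputed for the 3 counts of cells, 61 stayed within 1.5 times. The 5 that moved all came from calling a gene on at 1 count. By that rule 21 CV cells and 4 FP cells had at least 1 gene on (12 and 0 at 50 CPM), 15 CV cells had 2 or more (6 at 50 CPM), and 21 CV and 4 FP cells had a gene and a taste receptor on (11 and 0 at 50 CPM). At 200 CPM 9 CV cells had at least 1 gene on, without a Gnat3 limit 14, and with CPM taken without mitochondrial and ribosomal RNA 15, with 0 FP cells in each. The CV cells on ranged over 6 to 13 for Nefl, 5 to 13 for Nrgn, 3 to 7 for Syt1, 0 to 6 for Otop1 and 0 to 13 for Snap25, which had 2 at 20 CPM and 2 at 50 CPM without mitochondrial and ribosomal RNA counts. Over 10 alternatives the log2 ratio ran over 3.47 to 7.67 for Nefl, 3.63 to 7.95 for Nrgn, 2.09 to 5.83 for Syt1, 0.39 to 4.65 for Otop1 and 0.29 to 1.92 for Snap25, positive throughout; its size rested on the pseudocount, the weight of deep cells and, for Otop1, cell a. The limit to cells with 1000000 counts or more was added after seeing the data. No paired analysis was possible because each papilla has 1 library. In the shallowest kept CV cell, of 32726 counts, 50 CPM takes fewer than 3 counts, so a call there is loose and absence there was not detectable at this depth.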
